A study of Mus musculus with 4 samples.

Results

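Blood clotting is held in balance at the inner face of vessels, and endothelial cells (ECs), the cells that line them, make proteins for both sides of that balance. Von Willebrand factor and tissue factor favour clotting. Thrombomodulin, the endothelial protein C receptor and tissue factor pathway inhibitor hold it back, tissue-type plasminogen activator and annexin A2 help to dissolve fibrin, and the protease-activated receptor PAR1 lets a cell sense thrombin. ECs of brain vessels are known for a make-up of these proteins that differs from that of other vessels, and thrombomodulin is known to vary along the vascular tree. Described here are 9 genes of this system, Vwf, Thbd, Procr, Tfpi, F3, F8, Plat, F2r and Anxa2, taken by their gene symbols from the 23282 symbols counted. Each symbol stood on a single line. The rule used no measured value, but it was set with earlier results of these data known.

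ECs of the dura mater, the outer membrane under the skull, were set against ECs of brain parenchyma, to ask how their expression differs. The mice were C57BL/6J, aged 8 weeks, with no treatment or transgene in the labels, and there were 2 libraries for each tissue. Cells carrying CD31 but neither CD45 nor TER-119 were sorted after enzymatic digestion, and brain ECs had passed an extra magnetic CD31 enrichment that dura mater ECs had not, so this step and the tissue cannot be told apart. How many mice gave each library, and whether libraries came from separate mice, is not stated, so p-values measure only the spread between these libraries, which may be technical.

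CPM values below are counts relative to library size, after trimmed-mean (TMM) normalization. Libraries held 13518973 to 16096203 counts, and 9350 to 11803 symbols had at least 1 count, most of them in dura mater replicate 2. Replicates often disagreed on single genes. Of the tested genes with 64 or more counts in a library, 28.9% in the brain and 18.9% in the dura mater had 7 or fewer in the other library of that tissue. The 10 pan-endothelial markers, such as Pecam1 and Cdh5, summed to 9821 and 12341 CPM in the brain against 8502 and 10833 CPM in the dura mater, and 8 markers of brain endothelium to 26549 and 24494 against 3260 and 3211 CPM, as the labels have it. Transcripts of other cells were counted as well. Globin and other erythroid markers summed to 17855 and 25466 CPM in brain ECs against 1483 and 755 CPM in dura mater ECs. Fibroblast markers summed to 7.32 and 50.5 against 367 and 351 CPM, and lymphatic markers to 122 and 143 against 345 and 567 CPM. The lymphatic sum in the brain was nearly all Flt4 (1777 and 1905 counts against 2384 and 4018). Prox1, Lyve1 and Ccl21a had 0 counts in the brain, against 492 and 125, 911 and 1776, and 883 and 3378. Pdpn had 3 and 7 against 3 and 45 counts. Mural cell markers summed to 615 and 1066 against 1117 and 658 CPM, and leukocyte markers to 51.1 and 52.8 against 46.3 and 30.8 CPM. Neural and glial markers summed to 103 and 0.899 against 223 and 25.1 CPM.

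The kit reads the 3′ end of each transcript, so levels are compared within a gene and not between genes. Fold changes are given as log2 of dura mater over brain ECs with their standard error (SE), and adjusted p-values come from edgeR's quasi-likelihood test across all genes.

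Of the 9 genes, 7 passed the filter on low counts and were tested. None passed an adjusted p of 0.05 in edgeR, where 0.61% of the 9347 genes tested did. At an unadjusted p under 0.05 there were 3, F2r, Vwf and Thbd, each higher in dura mater ECs, against 7.04% of all genes tested in that direction. Other tests gave 2 genes in DESeq2 (Vwf and F2r, where 6.63% of all genes were called higher) and 1 in limma-voom (Vwf, 0.428%). Both dura mater libraries lay above both brain libraries for 6 of the 7 tested genes, a pattern shown by 26.2% of all genes tested. The reverse was seen for none of the 9 and for 16.9% of all genes tested. F8, F3 and Plat overlapped between tissues. The median log2 fold change of the 7 tested genes was 2.20, and that of all genes tested was −0.0067. F2r entered the test through its dura mater counts alone. Procr and Tfpi, with 7 and 0 counts in a brain library, would not have entered on their brain counts alone. The counts over tested genes therefore only describe the group.

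**Figure D1:**
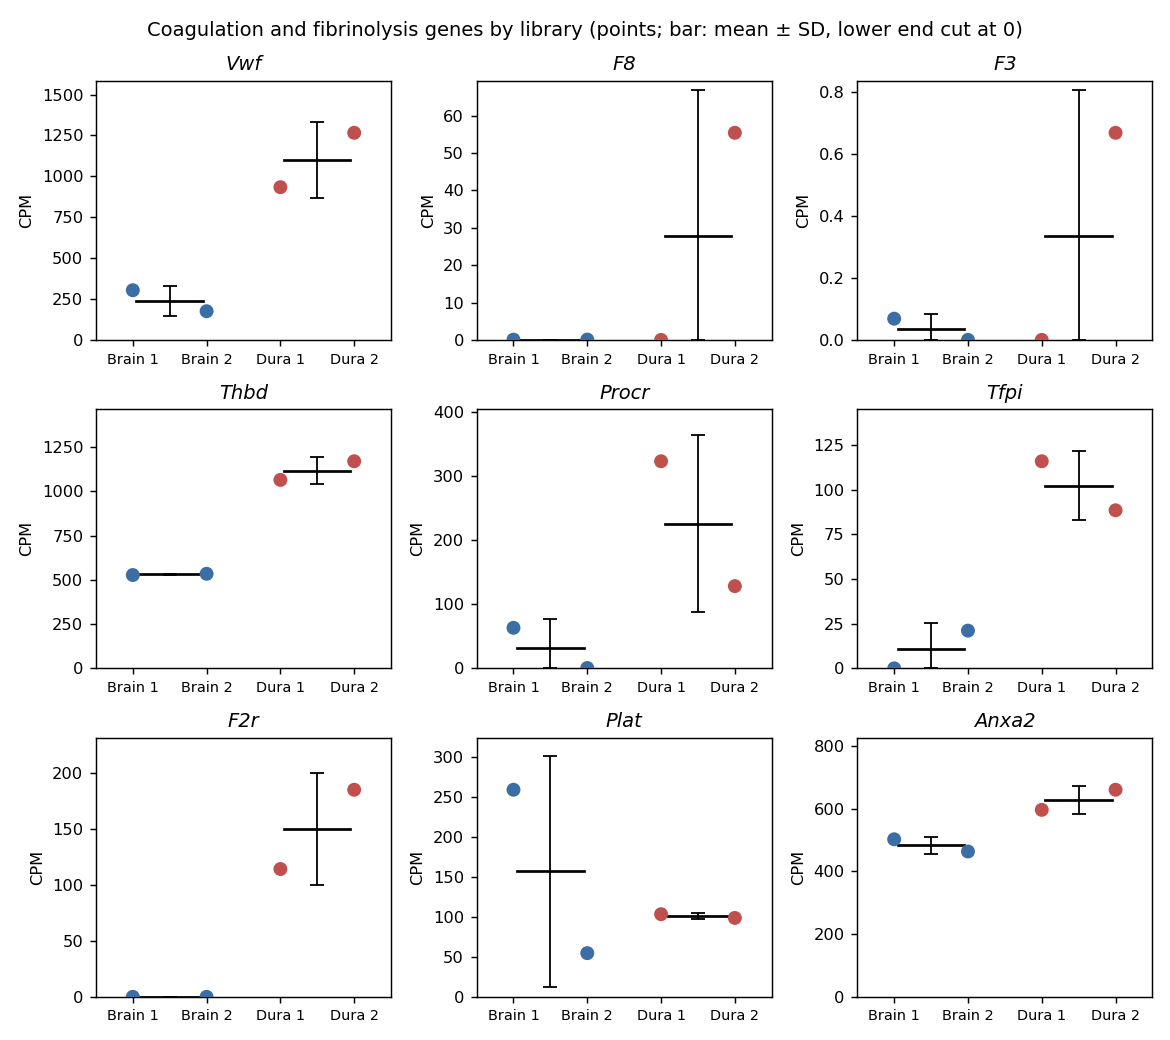
Level of each gene in every library, in CPM on a linear axis from 0 that differs between panels; blue points are brain EC libraries, red points dura mater EC libraries, and black bars the mean ± SD of 2 libraries, with the lower end cut at 0. Vwf, Thbd and F2r sit higher in both dura mater libraries, while Plat spreads from 54.6 to 259 CPM within brain ECs.

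The promoters of F2r, Procr and Anxa2, which lay higher in both dura mater libraries, and of F3, which was close to 0 throughout, are shown first, because a short motif recurred in them. The sequences are from RefSeq (GRCm38.p6), which held promoters of 6 of the 9 genes: Procr, Tfpi, F3, F8, F2r and Anxa2. Each runs 5′ to 3′ on the strand of the gene, from 250 bases before to 50 bases after a start site. Capitals mark exact matches on either strand to the letters CCGGAA for ETS factors, AGATAA for the GATA family, CCACCC for KLF and Sp factors, TGANTCA for AP-1 and TATAAA for the TATA box. Those shown lie at chr13:95618417-95618716 on the minus strand for F2r, and on the plus strand at chr2:155750967-155751266 for Procr, chr9:69453433-69453732 for Anxa2 and chr3:121723287-121723586 for F3.
F2r: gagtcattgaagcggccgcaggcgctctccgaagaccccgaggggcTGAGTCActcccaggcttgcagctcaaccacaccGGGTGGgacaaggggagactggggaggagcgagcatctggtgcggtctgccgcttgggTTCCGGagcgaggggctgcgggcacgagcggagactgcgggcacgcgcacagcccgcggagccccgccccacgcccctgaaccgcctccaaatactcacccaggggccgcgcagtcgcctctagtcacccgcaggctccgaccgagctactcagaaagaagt
Procr: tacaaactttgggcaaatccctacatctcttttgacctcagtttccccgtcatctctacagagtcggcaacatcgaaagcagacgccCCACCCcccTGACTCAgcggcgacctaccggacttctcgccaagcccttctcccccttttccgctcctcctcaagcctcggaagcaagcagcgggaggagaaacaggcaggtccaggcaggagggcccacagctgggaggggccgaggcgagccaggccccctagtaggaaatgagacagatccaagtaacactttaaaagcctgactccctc
Anxa2: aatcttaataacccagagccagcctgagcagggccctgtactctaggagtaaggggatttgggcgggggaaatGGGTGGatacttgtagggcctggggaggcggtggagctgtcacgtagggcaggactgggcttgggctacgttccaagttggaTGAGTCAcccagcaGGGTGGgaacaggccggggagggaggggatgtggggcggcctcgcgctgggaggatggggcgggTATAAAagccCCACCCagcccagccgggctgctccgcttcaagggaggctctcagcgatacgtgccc
F3: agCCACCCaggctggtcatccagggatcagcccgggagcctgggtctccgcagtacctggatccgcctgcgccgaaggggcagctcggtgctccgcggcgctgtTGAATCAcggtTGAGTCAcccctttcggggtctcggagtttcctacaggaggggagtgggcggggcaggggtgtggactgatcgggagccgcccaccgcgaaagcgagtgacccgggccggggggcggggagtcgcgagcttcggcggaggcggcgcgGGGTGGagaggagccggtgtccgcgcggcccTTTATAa

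The AP-1 letters stood in 4 of the 6 genes with a promoter. These 4 are shown because they held the letters, so the share of all promoters below is no test of them. The letters occurred once in F2r, Procr and Anxa2 and at 2 places in F3, where the first reads TGAATCA and the second TGAGTCA. They were absent from the windows of F8 and of Tfpi, which also lay higher in both dura mater libraries. Of all 32851 promoters of the same length in the table, 7.81% held them. The ETS letters were found in F2r only among the 6 genes (14.9% of all promoters). The KLF and Sp letters were found in F2r, Procr, Anxa2 and F3 (31.5% of all promoters), with 3 matches in Anxa2. GATA letters stood in the second promoter of Tfpi alone (11.2%). The letters TATAAA stood on the strand of the gene in Anxa2 only, from base −17. In F3 (base 44, after the start site) and the first promoter of Tfpi (base −127) the match was TTTATA, on the other strand. On either strand, 13.6% of all promoters held a match. GC content was 68.7% in F2r and 70.3% in F3, against a median of 52.7% over all promoters and 42.3% in F8. These are letter matches in short windows, and binding was not measured. F3 had at most 11 counts in any library.

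Vwf encodes von Willebrand factor, which carries factor VIII and tethers platelets, and is stored in Weibel-Palade bodies of ECs (chromosome 6, 125546774 to 125686679, plus strand, GRCm38). Brain libraries held 4440 and 2340 counts of it, dura mater libraries 12632 and 20857. The groups did not overlap, and the lowest dura mater library was well above the highest brain library. The level was 239 ± 90.7 CPM in the brain and 1100.0 ± 235 CPM in the dura mater (SD, n = 2). The log2 fold change was 2.20, with an SE of 0.42 and an adjusted p of 0.127 in edgeR. Set against the summed counts of the 10 pan-endothelial markers in the same library, Vwf made 30.9 and 14.2 per 1000 of them in the brain, and 109.8 and 117 in the dura mater. The adjusted p moved with the libraries used. Without brain replicate 1 it was 0.000113 (4.22% of all genes were then called higher), and without brain replicate 2 it was 0.0148 (4.2%), while without a dura mater library it was 0.112 and 0.23. Platelets also carry this protein. Of 9 platelet and megakaryocyte markers, Gp9, Gp1ba, Gp5 and Treml1 had 0 counts in each library, while Gp1bb had 1210 and 4 against 1133 and 278 and Itga2b 395 and 0 against 487 and 0. The list summed to 129 and 0.674 CPM in the brain and to 120.0 and 33.0 CPM in the dura mater, ranges that overlap, and its part in the Vwf counts was not tested.

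F8 encodes factor VIII, the cofactor that speeds activation of factor X (chromosome X, 75172715 to 75382615, minus strand). It had 1 count in each brain library, 0 in dura mater replicate 1 and 913 in dura mater replicate 2. Nearly all of its signal thus came from 1 library, so it did not pass the filter on low counts and was not tested. F3 encodes tissue factor, the cell-surface trigger of clotting, which is known from perivascular cells and astrocytes rather than from resting endothelium (chromosome 3, 121723537 to 121735048, plus strand). Counts were 1 and 0 in the brain, 0 and 11 in the dura mater, and it was not tested. A difference between tissues was not detectable at this depth.

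Among the anticoagulant genes, Thbd encodes thrombomodulin, which turns bound thrombin into an activator of protein C (chromosome 2, 148404466 to 148408188, minus strand, a gene of 1 exon). Its counts were 7716 and 7136 in the brain, and 14414 and 19285 in the dura mater. Replicates were close and the groups stood apart. Levels were 531 ± 4.98 CPM and 1118 ± 74.6 CPM (SD, n = 2), apart by 1.07 on the log2 scale (SE 0.31), with an unadjusted p of 0.0124 and an adjusted p of 0.339 in edgeR. Its adjusted p stayed between 0.0979 and 0.771 over the alternatives. Per 1000 pan-endothelial counts, Thbd made 53.7 and 43.3 in the brain, and 125 and 108 in the dura mater.

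Procr encodes the endothelial protein C receptor, which presents protein C to the thrombomodulin complex (chromosome 2, 155751117 to 155755471, plus strand). Brain replicate 1 held 925 counts and replicate 2 held 7, while dura mater libraries held 4373 and 2114. The brain libraries thus disagreed strongly, yet both lay under the dura mater libraries. Levels were 31.9 ± 44.4 CPM and 226 ± 138 CPM (SD, n = 2), with a log2 fold change of 2.82 whose SE was 1.75 (adjusted p 0.707, edgeR). Without brain replicate 1 the log2 fold change was 8.39 (edgeR adjusted p 1.55e-11), and without brain replicate 2 it was 1.79 (0.143). Without dura mater replicate 1 it was 1.87 (edgeR adjusted p 0.954) and without replicate 2 it was 3.32 (0.725), so the size of the difference depended most on a single brain library.

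Tfpi encodes tissue factor pathway inhibitor, which blocks factor Xa and the complex of tissue factor with factor VIIa (chromosome 2, 84432855 to 84476775, minus strand). Brain libraries held 0 and 282 counts, dura mater libraries 1569 and 1458. The dura mater libraries were close to each other, while the brain libraries were not. Levels were 10.6 ± 14.9 CPM and 102 ± 19.4 CPM (SD, n = 2), with a log2 fold change of 3.26 whose SE was 2.43 (adjusted p 0.850, edgeR). Without brain replicate 2 the log2 fold change was 9.56 (edgeR adjusted p 4.56e-06), a value that rests on a lone brain library at 0 counts. Without brain replicate 1 it was 2.23 (edgeR adjusted p 0.398), and without a dura mater library 2.91 and 3.41 (0.967 and 0.809).

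F2r encodes PAR1, the main thrombin receptor of ECs, which thrombin switches on by cutting it (chromosome 13, 95601803 to 95618487, minus strand). Neither brain library held a count of it, whereas the dura mater libraries held 1545 and 3048. A count of 0 allows up to 3 counts, or 0.205 and 0.225 CPM in the brain libraries, for counting error only. This floor leaves out the disagreement between brain replicates given above. The mean of dura mater ECs, 149.6 ± 50.1 CPM (SD, n = 2), was at least 696-fold above that floor. By dura mater replicate 1 alone the level was at least 531-fold above it. F2r had the smallest p of the 9 genes, and 73 of the 9347 genes tested had a smaller one, but it missed the threshold (edgeR adjusted p 0.0566, from 1.22e-10 to 0.257 over the alternatives). It passed without brain replicate 1 (4.55e-10), without brain replicate 2 (1.22e-10) or without dura mater replicate 1 (edgeR adjusted p 0.0453, where 0.378% of all genes were called higher), but not without dura mater replicate 2 (0.257). As a description, 396 tested genes were at 0 in each brain library, F2r among them, and were tested through their dura mater counts alone. Of these, 16 (0.171% of genes tested) reached 1000 counts in each dura mater library, a level chosen for F2r. Of the 16, 4 had an edgeR adjusted p under 0.05. Fibroblast and lymphatic markers, given above, were higher in the same libraries. Of 7 fibroblast and 5 lymphatic markers, the 4 tested of each lay higher in both dura mater libraries, beside 26.2% of all genes tested. So did 3 of 8 tested mural, 1 of 4 tested leukocyte and 3 of 4 tested neural and glial markers. None of these tested markers lay higher in both brain libraries. Of the other fibroblast markers, Pdgfra had at most 1 count and Lum at most 4 in any library, and Dpt had 434 in dura mater replicate 1 and at most 3 elsewhere. The part of any of these cells in the F2r counts was not tested, and more such cells and more RNA per cell cannot be told apart in bulk samples.

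**Figure D2:**
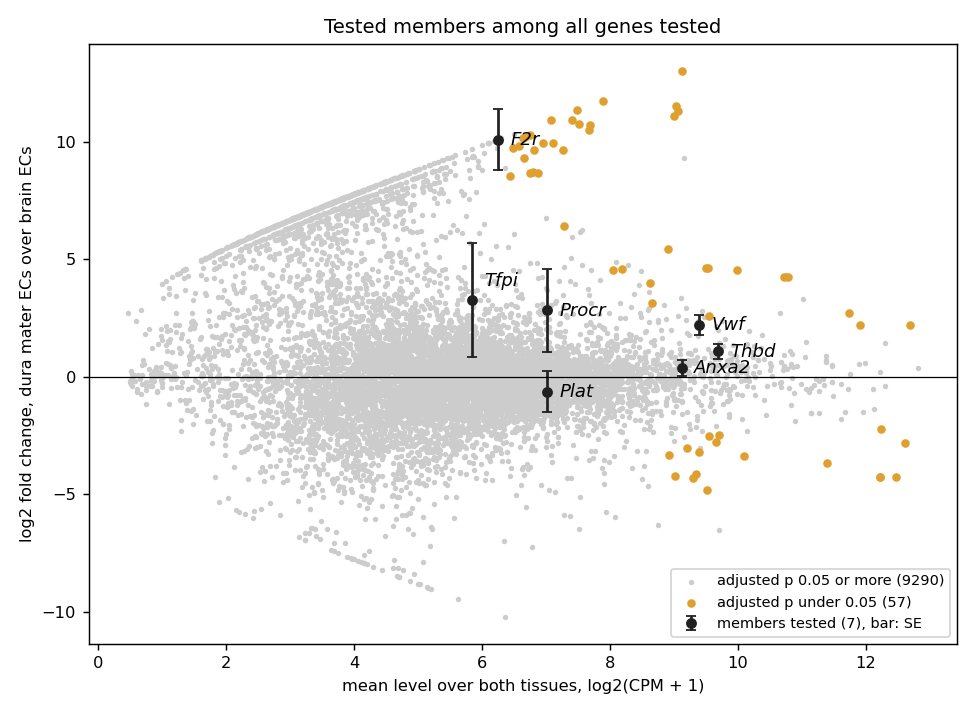
Log2 fold change of dura mater over brain ECs (vertical axis) against mean level over both tissues, log2(CPM + 1), for the 9347 genes tested; orange points are the 57 genes with an adjusted p under 0.05, black points the 7 tested genes of the coagulation and fibrinolysis group with their SE. F2r lies at 10.08 on the edge made by genes with 0 counts in brain ECs, Vwf and Thbd lie above 0 with short error bars, and the bars of Tfpi and Procr are long.

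Of the genes of fibrin breakdown, Plat overlapped between tissues and Anxa2 did not. Plat encodes tissue-type plasminogen activator, which turns plasminogen into plasmin (chromosome 8, 22757727 to 22782844, plus strand). Its counts were 3787 and 729 in the brain, and 1398 and 1625 in the dura mater, so that both dura mater libraries lay between the brain libraries. Levels were 157 ± 144 CPM and 101 ± 3.30 CPM (SD, n = 2), with a log2 fold change of −0.63 whose SE was 0.86 (adjusted p 1.00, edgeR). Without brain replicate 1 the sign turned, to 0.84. Anxa2 encodes annexin A2, which with its partner S100a10 gathers plasminogen and its activator at the cell surface (chromosome 9, 69453620 to 69491795, plus strand). Brain libraries held 7347 and 6186 counts, dura mater libraries 8067 and 10878. The groups were close but did not overlap, at 483 ± 27.5 CPM and 628 ± 45.4 CPM (SD, n = 2), with a log2 fold change of 0.38 whose SE was 0.34 (adjusted p 0.942, edgeR). An antisense gene, Gm16144, overlaps 2.63% of the exon length of Anxa2, and no source says whether counting used the strand.

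Agreement between replicates differed among the 9 genes. On the log2(CPM + 1) scale, the brain replicates of Thbd differed by 0.02 and those of Anxa2 by 0.12, whereas those of Procr differed by 5.40, of Tfpi by 4.47 and of Plat by 2.22. The median gap over all genes tested was 1.28 in the brain and 1.08 in the dura mater. In dura mater ECs the gap was 0.07 for Plat, 0.39 for Tfpi and 0.44 for Vwf, but 5.82 for F8. The discordance of Procr, Tfpi and Plat thus lay mostly in the brain libraries, and that of F8 in the dura mater libraries.

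Beyond these, 41 other genes of the cascade were read from lists by role. Of them 20 had 0 counts in each library, among them prothrombin (F2), the fibrinogen chains Fga, Fgb and Fgg, plasminogen (Plg) and protein C (Proc), proteins made mainly by the liver. Of the 13 tested, none passed an adjusted p of 0.05 in edgeR (0.61% of all genes did), and none had an unadjusted p under 0.05. DESeq2 called 1, Plaur (adjusted p 0.0349, where 6.63% of all genes were called higher), and limma-voom none. Both dura mater libraries lay above both brain libraries for 6 of the 13, beside 26.2% of all genes tested, and the reverse held for none, beside 16.9%. The median log2 fold change was 0.94. Plaur, with 1 count in all in the brain, entered the test through its dura mater counts alone, as did Plgrkt and Adamts13. Ggcx, with 0 counts in brain replicate 2, would not have entered on its brain counts alone. The counts over these tested genes are therefore a description.

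**Figure D3:**
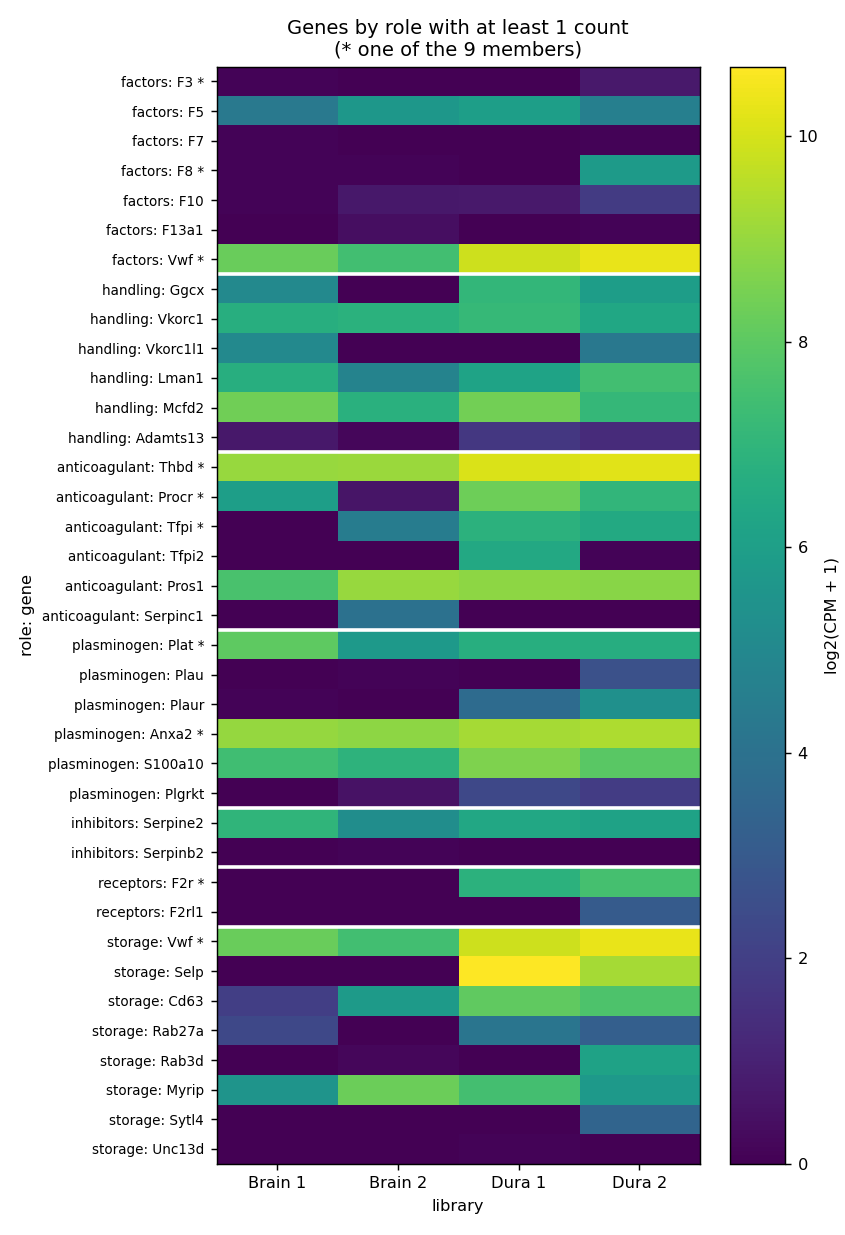
Level of genes of the role lists with at least 1 count, as log2(CPM + 1) by colour, in the 4 libraries (columns); rows are grouped into clotting factors, handling and cleavage of factors, anticoagulant genes, plasminogen activation, inhibitors of fibrinolysis, thrombin receptors and Weibel-Palade body storage, and asterisks mark the 9 genes. F2r and Selp are dark in both brain columns, and many rows, such as Ggcx, Tfpi2 and F8, are bright in some libraries of a tissue and dark in the other.

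Among clotting factors, F5, the cofactor of factor X in making thrombin, had 274 and 653 counts in the brain against 846 and 388 in the dura mater, which overlap. F10 (1 and 8 against 9 and 43 counts), F13a1 and F7 (at most 4 counts in any library) were not tested. Among genes that process or cleave the factors, Ggcx, the carboxylase that vitamin K-dependent factors need, had 461 and 0 counts against 1817 and 996 (log2 fold change 2.62, SE 2.43, edgeR adjusted p 0.952). Adamts13, the protease that cuts von Willebrand factor, had 9 and 2 against 32 and 25 counts. Mcfd2, part of the receptor that exports factors V and VIII from the endoplasmic reticulum, had 4874 and 1444 against 4598 and 2253 counts. Vkorc1, which recycles vitamin K, had 1495 and 1479 against 1928 and 1327 counts, but a same-strand gene overlaps 47.7% of its exon length, which makes its count uncertain.

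Of the further anticoagulant genes, Pros1, which encodes protein S, the cofactor of activated protein C, had 2832 and 6987 counts in the brain against 6318 and 7321 in the dura mater. Its log2 fold change was 0.35 (SE 0.54, edgeR adjusted p 1.00). Tfpi2, a related inhibitor, had 1167 counts in dura mater replicate 1, 1 in replicate 2 and 0 in both brain libraries. Serpinc1, antithrombin, had 197 counts in brain replicate 2 and 0 elsewhere, and an opposite-strand gene, Zbtb37, overlaps 34.4% of its exon length. Each rested on a single library and was not tested. Of the other thrombin and protease-activated receptors, F2rl1 had 121 counts in dura mater replicate 2 and 0 elsewhere, and F2rl2 and F2rl3 had 0 throughout.

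On the side of plasmin formation, S100a10, the partner of annexin A2, had 2490 and 1573 counts in the brain against 5318 and 4055 in the dura mater, with no overlap (log2 fold change 1.15, SE 0.51, edgeR adjusted p 0.473). Plaur, the urokinase receptor, had 1 and 0 counts against 164 and 658 (log2 fold change 7.25, SE 3.02, edgeR adjusted p 0.466). Its ligand urokinase (Plau) had 87 counts in dura mater replicate 2 and at most 1 elsewhere. Plgrkt, a plasminogen receptor, had 0 and 6 counts against 54 and 45. On the side of its inhibitors, Serpine2 (protease nexin-1) had 1835 and 485 against 1134 and 1159 counts, and Serpinb2 had 1 count in all. Neither activation nor inhibition of fibrinolysis thus held a gene past the threshold in edgeR.

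Von Willebrand factor is stored with P-selectin. Of the 10 genes of Weibel-Palade body cargo and release, 6 were tested and 1, Selp, passed in edgeR, beside 0.61% of all genes tested. Selp was at 0 in the brain libraries, with 22187 and 9995 counts in the dura mater libraries, at least 5226-fold higher (edgeR adjusted p 0.0232), or at least 2823-fold by dura mater replicate 2 alone, although opposite-strand genes overlap 9.93% and 4.21% of its exon length. In limma-voom it missed the threshold (adjusted p 0.098). Cd63, another cargo protein, had 43 and 736 counts against 3662 and 3425 (log2 fold change 3.04, SE 1.29, edgeR adjusted p 0.466). Rab27a, which acts in release, had 59 and 0 against 230 and 139 counts and was also higher in both dura mater libraries (edgeR adjusted p 1.00). Of the 6 tested genes of this list, 5, Vwf among them, showed that separation, beside 26.2% of all genes tested. Selp entered the test through its dura mater counts alone. Rab27a, with 0 counts in brain replicate 2, would not have entered on its brain counts alone. The count over this list is therefore a description.

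Immediate-early genes moved with the tissue as well. A list of 10, among them Fos, Jun and Egr1, which switch on quickly in handled or stimulated cells and include parts of AP-1, summed to 4497 and 4959 CPM in the brain against 24055 and 27855 CPM in the dura mater. All 10 lay higher in both dura mater libraries, as did 26.2% of all genes tested, and 5 passed in edgeR, as did 0.61%. This list was not among the planned ones and was chosen with earlier results of these data known, so the shares are no test. Thbd, Plaur and F3 are known to respond to such stimuli in culture. The part of this response in the values above was not tested.

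The genes with levels most like those of F2r and Vwf, the members with the smallest p-values, were found by Euclidean distance of log2(CPM + 1) over the 4 libraries. For F2r they were Fam167b (distance 0.39, with 0 and 0 against 1964 and 2693 counts), Ccl21b (0.47) and Itgb4 (0.53). Ccl21b belongs to a family of near-identical copies, Ccl21a of the lymphatic list among them, so the count of Ccl21b is uncertain. For Vwf they were Cmip (distance 0.63), Marveld1 (0.64) and Ctgf (0.77, with 7057 and 2564 against 14294 and 26101 counts). With 4 libraries this likeness is a description.

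**Figure D4:**
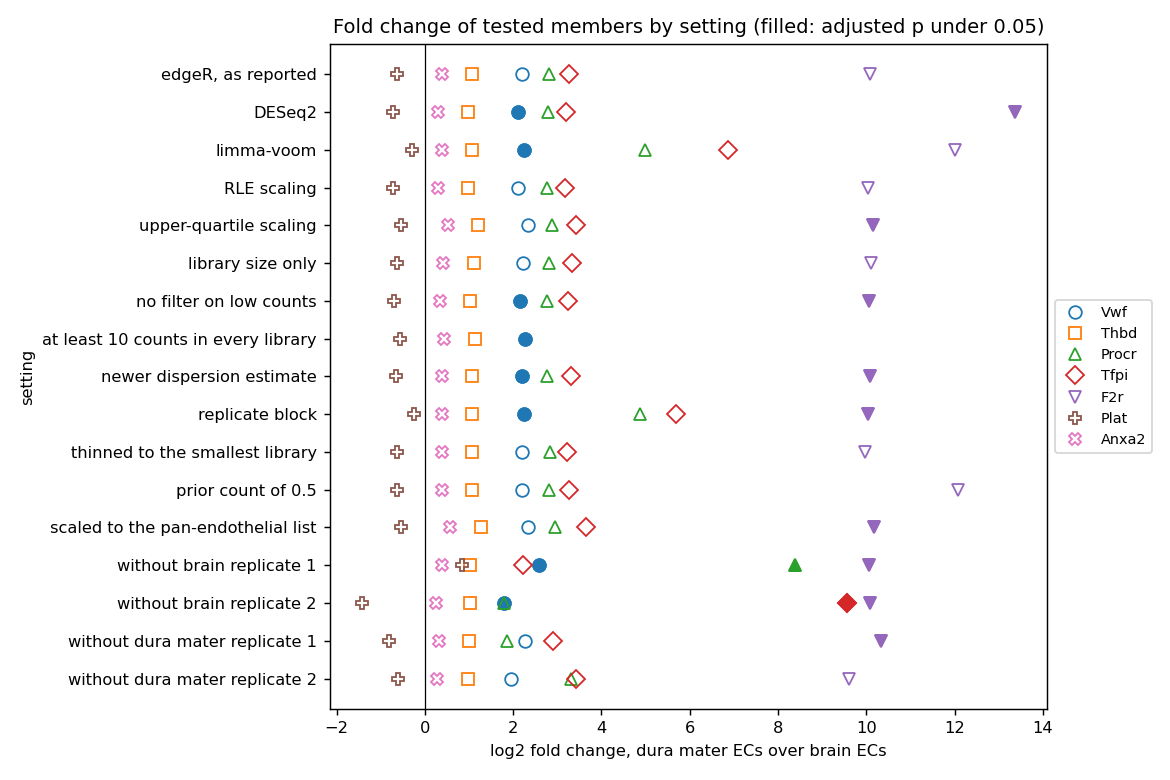
Log2 fold change of dura mater over brain ECs (horizontal axis) for the 7 tested genes, each with its own symbol, under the reported edgeR test and the alternatives (rows); filled symbols mark an adjusted p under 0.05. Thbd stays between 0.98 and 1.27 and Vwf between 1.79 and 2.60, whereas Procr reaches 8.39 and Tfpi 9.56 when a brain library is left out, and Plat changes sign once.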

How the data were processed

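Sorted ECs were sequenced with a QuantSeq kit, whose reads start near the 3′ end of polyadenylated RNA. For each library the authors deposited raw counts, whole numbers for 23282 gene symbols with no scaling. The methods name TopHat and cufflinks; the submitters' processing notes name Bowtie2, edgeR and mm10, with no versions. The counting tool, the annotation, the use of strand and of molecular identifiers are not given in the sources used here, so PCR copies may be counted and counting limits cover counting error only.

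Groups and replicate numbers were taken from the sample titles. The deposited files carry other numbers than the titles, so a replicate number here only names a library. The 9 genes, the role and marker lists and the motifs were chosen with earlier results of these data known. Genes were tested with edgeR 4.0.16 under R 4.3.3, by quasi-likelihood (TMM normalization, filterByExpr, tissue as the only term, Benjamini-Hochberg adjustment over 9347 genes). It stands in for cufflinks, which needs the alignments, not used here. Log2 fold changes used a prior count of 2, and the SE was taken as the fold change over the root of its F statistic. A fold against a tissue at 0 counts was computed against 3 counts per library. Means ± SD are over n = 2. Named genes were the 9 genes, genes of the role lists with an adjusted p under 0.05 and up to 4 others per list, by separation of the groups and then by level. Some genes that this rule names are not reported here, but are included in the counts over lists. The alternatives were DESeq2 1.42.0, limma-voom (limma 3.58.1), other scalings, filters and dispersion estimates, a replicate term, thinning, another prior count, a stricter threshold and each library left out in turn. The scripts were tested on simulated counts. Positions and exon overlaps are from GENCODE M21 (GRCm38, which is mm10), and promoters from RefSeq (GRCm38.p6).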

Additional observations from a re-analysis of the deposited data

How the results depend on the processing

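Of 116 fold changes of the 7 tested genes over the alternatives, 96 kept direction and side of the threshold, 19 kept direction and passed it, and 1 turned. Those at the stricter threshold reused the reported fit, so they were bound to fall among the 96. Genes differing over all genes tested numbered 57 in edgeR, 810 in DESeq2, 326 with no filter on low counts, 141 with at least 10 counts in every library, 305 with the newer dispersion estimate, 1 at an adjusted p under 0.01, and 80 to 740 with a library left out. Of the 9 genes, 0 in edgeR became 2 in DESeq2, with no filter and with the newer dispersion estimate (Vwf and F2r each time), and 1 in limma-voom and with 10 counts in every library (Vwf) and with upper-quartile scaling and scaling to the pan-endothelial list (F2r). With a library left out the number was 0 to 3. Over the role lists with these genes, 0 became 3 in DESeq2, 2 with no filter and with the newer dispersion estimate, 1 in limma-voom, with 10 counts in every library, with upper-quartile scaling and with pan-endothelial scaling, and 0 to 4 with a library left out. The cause was not tested. The median log2 fold change of the tested members was 0.79 with 10 counts in every library, since only 4 of them could then be tested. Pan-endothelial scaling was chosen after seeing the data. It moved the median of all genes by 0.18 and upper-quartile scaling by 0.14 on the log2 scale.

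In edgeR with a replicate block 224 genes passed, 2 of the 9 (Vwf, adjusted p 0.00375, and F2r, 0.00133) and 2 of the role lists. The titles number the libraries, in conflict with the numbers the files carry, and do not say that a number marks shared mice, and deviations of libraries with the same number were not correlated across genes (r = −0.0153).

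Signs turned for genes near 0. With a library left out, Plat ranged from −1.42 to 0.84, F5 from −0.66 to 1.15, Mcfd2 from −0.83 to 1.11, Vkorc1 from −0.54 to 0.40, Pros1 from −0.25 to 1.17 and Serpine2 from −0.76 to 1.04. Vkorc1 was −0.024 in limma-voom. Serpine2 was 0.13 in limma-voom, 0.034 with upper-quartile scaling, 0.18 with the replicate block and 0.057 with pan-endothelial scaling. A fit with a library left out assumes that the lone library of that tissue varies like the others.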
